A study of Homo sapiens with 22 samples.

Results

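Gene expression was examined for 10 genes that bear on the surface of neuroblastoma cells, out of 35237 gene rows in a count table of 22 libraries. The rule named them by symbol and used no measured value, but the set was chosen with earlier results of these data known. Of these genes, 4 are enzymes on the route to the ganglioside GD2 (UGCG, ST3GAL5, ST8SIA1 and B4GALNT1). The other 6 are surface antigens at which therapies have been aimed (CD276, L1CAM, NCAM1, GPC2, ALK and DLK1). SK-N-AS and GIMEN, the sources of the total RNA, are long-established lines from human neuroblastomas, and both are called mesenchymal (MES) in the labels. Cells received PP121, an inhibitor of tyrosine kinases and phosphoinositide kinases, and bufalin, a cardiac glycoside that blocks the sodium pump. SK-N-AS was untreated in DMEM with 10% fetal bovine serum (n = 4), or held for 4 days in 5 µM PP121 with 1% serum (S1D4, n = 4). Cells from that first stage then received 5 µM PP121 with 100 nM bufalin in Neurobasal medium with B27, and were taken after 4 days (S2D4, n = 4) or after 30 days of it (S2D30, n = 4). GIMEN was untreated in RPMI with 10% serum (n = 3), or treated for 30 days with 2.5 µM PP121 and 10 nM bufalin in RPMI with 1% serum (D30, n = 3). Each line is a single established line, and the drug doses, medium and scheme differed between the lines. Medium and serum also changed together with the drugs, so the agents and the medium cannot be told apart. The labels do not say whether replicates were separate cultures, so p-values measure only the spread between these libraries, which may be technical.

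Gangliosides are glycolipids of the outer cell membrane that carry sialic acid. Their synthesis starts from ceramide: UGCG adds the first glucose, ST3GAL5 adds a sialic acid to lactosylceramide to make GM3, ST8SIA1 (GD3 synthase) adds another to make GD3, and B4GALNT1 (GM2/GD2 synthase) adds N-acetylgalactosamine, which turns GD3 into GD2. GD2 is the target of antibodies used to treat neuroblastoma, and it is a lipid, so transcripts report on its enzymes and not on the antigen itself. The 6 protein antigens are targets of antibodies, immunotoxins, engineered T cells or, for ALK, kinase inhibitors.

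Total counts were 16456484 to 37506800 per library, and levels are given as CPM (counts scaled to a fixed library size) after 1 scaling of all 22 libraries by the trimmed mean of M-values. S2D4 replicate 4 stood apart: its mean correlation with the other libraries of its group was 0.968, against 0.983 for each of the others. In untreated and S1D4 cells, replicates 3 and 4 lay below replicates 1 and 2 for 1584 of 15810 tested genes (10% of them) and above for 2021 (12.8%). The labels name no batch for these pairs of replicates. Of marker lists for the labelled state, 12 mesenchymal genes summed to 1431 to 1955 CPM in untreated SK-N-AS and 47150 to 48978 CPM in untreated GIMEN. The 12 adrenergic genes, which mark the other neuroblastoma state, summed to 5157 to 10450 CPM and 1106 to 1137 CPM, and PHOX2A, TH and DDC were at 0 in untreated GIMEN. In untreated SK-N-AS, labelled mesenchymal, the adrenergic sum exceeded the mesenchymal sum, with 5252 ± 2536 CPM (SD, n = 4) from CHGA alone. Sums of different gene lists share no scale, so their order gives no verdict on the label. The 10 genes of a Schwann and glial list summed to between 3.05 and 10.2 CPM in every library. In bulk RNA, fewer cells of a type and less RNA per cell cannot be told apart.

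Changes were tested with edgeR's quasi-likelihood test on the counts, with Benjamini-Hochberg adjustment over all genes of a model, and a gene was called at an adjusted p under 0.05. The S1D4, S2D4 and S2D30 comparisons share the same 4 untreated libraries. In S1D4 against untreated cells, 5 of the 10 genes were called, 2 higher and 3 lower, where 40.1% of all tested genes were called (17.6% higher, 22.4% lower). In S2D4 the count was 8 of 10 (5 higher, 3 lower), where 63.1% of all genes were called (30.9% higher, 32.2% lower). All 10 were called in S2D30, 5 higher and 5 lower, against 70.3% of all genes (33.8% higher, 36.5% lower). In GIMEN, 7 of the 10 had enough counts to be tested and 5 of these were called, 2 higher and 3 lower, where 71.4% of all genes were called (35.5% higher, 36% lower). ALK, NCAM1 and DLK1 were filtered out there for low counts. Libraries of the compared groups did not overlap at all in 38.3% of tested genes for S1D4 against untreated cells, 51.2% for S2D4, 66.4% for S2D30 and 75.4% for GIMEN D30. The same held in 49.5% of genes between S1D4 and S2D4, 50.3% between S2D4 and S2D30 and 74.9% between untreated lines. At these backgrounds the number of called genes says little about the set, and the results lie in which gene moved which way. The S1D4 count ran from 5 to 8 over the alternative settings given below. S2D4 replicate 4 is in neither compared group, but it shares the model's scaling and estimate of the spread. With that library left out of the model, 8 were called, 4 higher and 4 lower. Over all genes the S1D4 calls then went from 6332 to 7689 (3506 higher, 4183 lower).

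The first and the later enzymes of GD2 synthesis moved in opposite directions in stage 2 of SK-N-AS. Against untreated cells, UGCG and ST3GAL5 rose while ST8SIA1 and B4GALNT1, the enzymes nearest to GD2, fell, in both S2D4 and S2D30. In S1D4 the UGCG rise and the B4GALNT1 fall were called and the other two were not. Promoter windows are shown for UGCG and ST3GAL5, which rose in stage 2, and for ST8SIA1, which fell. B4GALNT1 had no entry in the promoter table and is not shown. Each is the 250 bases before the RefSeq start on GRCh38.p14, read along the gene's strand, with capitals marking matches to a GC box (GGGCGG) or a CCAAT box (CCAAT) on either strand. UGCG lies at chr9:111896564-111896813 (plus strand), ST3GAL5 at chr2:85888991-85889240 (minus strand) and ST8SIA1 at chr12:22334708-22334957 (minus strand).
UGCG: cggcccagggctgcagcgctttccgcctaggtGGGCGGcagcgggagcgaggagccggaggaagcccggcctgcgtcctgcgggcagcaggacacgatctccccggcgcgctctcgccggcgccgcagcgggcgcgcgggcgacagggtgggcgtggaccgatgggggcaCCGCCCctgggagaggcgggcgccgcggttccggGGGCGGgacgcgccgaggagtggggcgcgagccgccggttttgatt
ST3GAL5: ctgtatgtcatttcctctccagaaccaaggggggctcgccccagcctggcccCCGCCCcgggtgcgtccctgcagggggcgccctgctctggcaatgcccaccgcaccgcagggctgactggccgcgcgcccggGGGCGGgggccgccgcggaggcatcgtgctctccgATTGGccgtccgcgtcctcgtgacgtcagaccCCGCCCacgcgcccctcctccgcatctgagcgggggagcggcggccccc
ST8SIA1: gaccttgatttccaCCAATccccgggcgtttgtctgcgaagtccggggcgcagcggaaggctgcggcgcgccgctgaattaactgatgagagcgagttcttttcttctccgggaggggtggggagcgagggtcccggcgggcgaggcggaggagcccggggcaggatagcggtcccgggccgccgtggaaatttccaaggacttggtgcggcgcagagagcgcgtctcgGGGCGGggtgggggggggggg
UGCG and ST3GAL5 each held 3 GC boxes and ST8SIA1 held 1, while 42.6% of the 35116 promoters in the table hold at least 1. A CCAAT box was found once in ST3GAL5 and once in ST8SIA1, a motif that 32% of promoters hold. None of the 3 windows held a TATA box (TATAAA, in 10.7% of promoters), an AP-1 motif (TGANTCA, 6.57%), an E-box (CACGTG, 6.34%) or a FOXO motif (GTAAACA, 2.98%). These are letter matches and show no binding. Of the 10 genes, 7 had an entry in the promoter table.

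UGCG, which commits ceramide to the glucose-based glycolipids, rose at each step in SK-N-AS. Untreated replicates 1 to 4 had 18.7, 18.6, 17.4 and 17.0 CPM, and S1D4 replicates had 56.8, 52.3, 55.2 and 53.6 CPM. S2D4 replicates had 95.5, 91.7, 90.3 and 112 CPM, and S2D30 replicates had 126, 132, 142 and 124.5 CPM. The 4 groups did not overlap, and each later group lay above the earlier. The log2 fold change against untreated cells was 1.58 (SE 0.08) in S1D4, 2.41 (SE 0.08) in S2D4 and 2.83 (SE 0.08) in S2D30, which is 7.12-fold in S2D30 (edgeR adjusted p = 1.66e-09, 1.63e-12 and 1.14e-13). The step from S1D4 to S2D4 was 0.83 (SE 0.08, edgeR adjusted p = 3.04e-07), and that from S2D4 to S2D30 was 0.43 (SE 0.08, edgeR adjusted p = 0.000288). GIMEN had 33.6, 31.2 and 35.8 CPM untreated and 55.5, 50.4 and 56.9 CPM at D30. All treated GIMEN libraries lay above all untreated libraries, by 0.67 on the log2 scale (SE 0.08, edgeR adjusted p = 1.26e-05).

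ST3GAL5 makes GM3, the precursor of the more complex gangliosides. It had 8.38, 6.42, 7.58 and 5.40 CPM in untreated SK-N-AS and 9.92, 10.5, 8.73 and 7.27 CPM in S1D4, and these groups overlapped (log2 fold change 0.36, SE 0.24, edgeR adjusted p = 0.256). S2D4 replicates had 13.7, 13.3, 14.3 and 31.1 CPM, and S2D30 replicates had 14.03, 13.7, 13.2 and 11.6 CPM. Both stage 2 groups lay above every untreated library, and S2D4 replicate 4 was far above its group. The log2 fold change was 1.35 (SE 0.24, edgeR adjusted p = 0.000133) in S2D4 and 0.88 (SE 0.24, edgeR adjusted p = 0.00389) in S2D30. Without S2D4 replicate 4 the S2D4 change was 0.95 (SE 0.15, edgeR adjusted p = 4e-05), and the S1D4 change of 0.36 passed the threshold (SE 0.14, edgeR adjusted p = 0.0489). GIMEN held far more of this transcript, with 61.7, 61.4 and 56.7 CPM untreated, and treatment lowered it to 30.7, 22.6 and 28.3 CPM. That fall, with no overlap, was -1.16 on the log2 scale (SE 0.10, edgeR adjusted p = 9.19e-07).

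ST8SIA1, the GD3 synthase, was the least abundant enzyme of the 4. Untreated SK-N-AS had 4.25, 4.59, 5.10 and 4.30 CPM, and S1D4 had 3.37, 3.95, 2.53 and 1.73 CPM. All S1D4 libraries lay below all untreated libraries, but the change was not called (log2 fold change -0.68, SE 0.28, edgeR adjusted p = 0.0679), although 5 of 25 alternatives called it. Among these, the change was -0.86 without S1D4 replicate 2 and -0.68 without S2D4 replicate 1 or S2D4 replicate 4 (edgeR adjusted p = 0.0367, 0.0406 and 0.0339). S2D4 replicates had 2.75, 1.14, 1.93 and 1.04 CPM, and S2D30 replicates had 1.45, 1.69, 1.63 and 1.35 CPM, all below untreated. ST8SIA1 fell by 1.45 on the log2 scale in S2D4 (SE 0.29, edgeR adjusted p = 0.000414) and by 1.61 in S2D30 (SE 0.29, edgeR adjusted p = 0.000131). Raw counts behind the S2D30 values were 31 to 36 per library. In GIMEN, 3.40, 3.73 and 2.94 CPM untreated stood beside 4.05, 2.98 and 3.60 CPM at D30, and the groups overlapped. The GIMEN log2 difference was 0.05, with a 95% interval of -0.36 to 0.46 (edgeR adjusted p = 0.841).

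B4GALNT1, which completes GD2, had 14.8, 23.3, 17.5 and 18.8 CPM in untreated SK-N-AS and 11.2, 14.2, 11.98 and 11.3 CPM in S1D4. S2D4 replicates had 2.09, 1.90, 2.31 and 3.89 CPM, and S2D30 replicates had 4.65, 4.66, 4.94 and 4.73 CPM. No group overlapped another, and the lowest level was at S2D4. The log2 fold change was -0.63 (SE 0.18, edgeR adjusted p = 0.0112) in S1D4, -2.88 (SE 0.20, edgeR adjusted p = 3.76e-09) in S2D4 and -2.00 (SE 0.19, edgeR adjusted p = 8.73e-08) in S2D30. From S2D4 to S2D30 it rose again by 0.87 (SE 0.20, edgeR adjusted p = 0.00174). GIMEN went the other way, from 45.0, 46.4 and 41.8 CPM untreated to 68.7, 84.4 and 64.1 CPM at D30. This rise of 0.68 (SE 0.10, edgeR adjusted p = 6.15e-05) separated all treated from all untreated libraries. Of 75-base words in the B4GALNT1 exons, 20.4% also occur in other annotated genes, and how the authors counted such reads is not given in the sources used here.

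**Figure D1:**
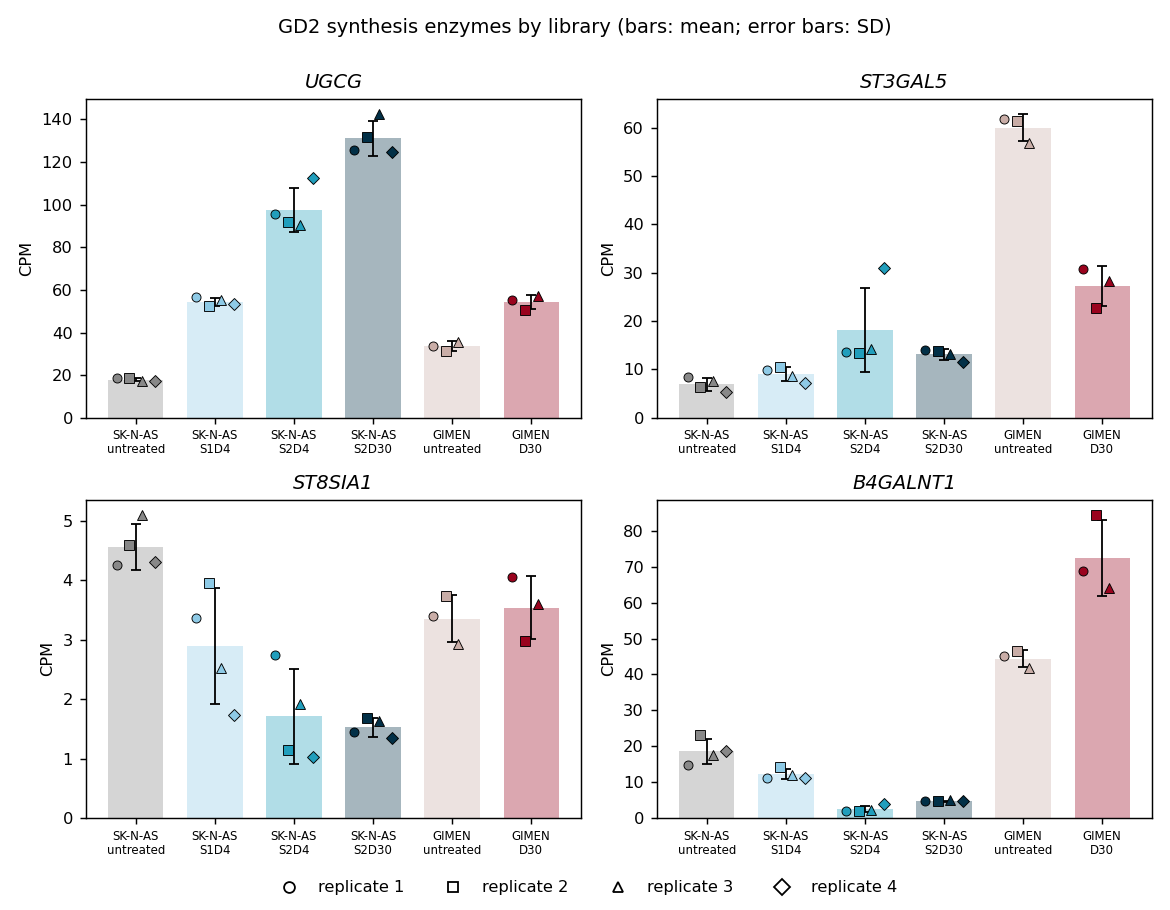
CPM (y axis) of the 4 GD2 synthesis enzymes in each of the 6 groups (x axis); bars are group means, error bars are SD and each point is a library, with its shape giving the replicate number. UGCG climbs from about 17.9 to 131 CPM in SK-N-AS, while B4GALNT1 drops from 18.6 to 2.55 CPM at S2D4 and is highest, at 72.4 CPM, in treated GIMEN.

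Among the antigens, CD276 (B7-H3), an immune checkpoint protein of the B7 family, had 145 to 404 CPM in every library. Untreated SK-N-AS had 158, 145, 154 and 145 CPM, and S1D4 had 189, 189.7, 173 and 172 CPM. S2D4 had 210.1, 233, 237 and 404 CPM, and S2D30 had 242, 290.0, 275 and 223 CPM. Each treated group lay above all untreated libraries, and S2D4 replicate 4 was far above its group. CD276 rose by 0.81 (SE 0.16, edgeR adjusted p = 0.000258) on the log2 scale in S2D4 and by 0.74 (SE 0.16, edgeR adjusted p = 0.000487) in S2D30, which is 1.67-fold. The S1D4 difference of 0.24 was not called (SE 0.16, edgeR adjusted p = 0.239), although it was without S2D4 replicate 4 (SE 0.08, edgeR adjusted p = 0.0224). The S2D4 change was then 0.56 (SE 0.09, edgeR adjusted p = 3.09e-05). GIMEN had 156, 166 and 160.2 CPM untreated and 206, 162 and 150.3 CPM at D30, with overlap. Its log2 difference was 0.07, with a 95% interval of -0.12 to 0.27 (edgeR adjusted p = 0.515).

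L1CAM, an adhesion protein of growing axons, peaked in the first stage. Untreated SK-N-AS had 134, 150.4, 99.2 and 118 CPM, and S1D4 had 392, 406, 297 and 301 CPM. S2D4 had 214, 217, 231 and 349 CPM, and S2D30 had 200.2, 182, 165 and 202 CPM. All treated groups lay above untreated cells, with S1D4 and S2D4 overlapping through S2D4 replicate 4. The log2 fold change was 1.45 (SE 0.16, edgeR adjusted p = 5.72e-06) in S1D4, 0.97 (SE 0.16, edgeR adjusted p = 7.78e-05) in S2D4 and 0.54 (SE 0.16, edgeR adjusted p = 0.00781) in S2D30. Replicates 3 and 4 lay below replicates 1 and 2 in both untreated and S1D4 cells, and the S1D4 log2 ratio was 1.49 within the first pair and 1.46 within the other. The S2D30 log2 ratio was 0.40 against untreated replicates 1 and 2 and 0.78 against replicates 3 and 4. In GIMEN the raw counts were 27, 19 and 19 untreated and 1, 9 and 1 at D30, near the floor of detection. Summed over libraries and scaled, the untreated level was 4.97 times the treated level (exact 95% interval 2.60 to 10.5, counting error only), and the fall was called (log2 fold change -2.30, SE 0.68, edgeR adjusted p = 0.00562). Without D30 replicate 2, which holds 9 of the 11 treated counts, the log2 fold change was -4.08.

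NCAM1, the neural cell adhesion molecule CD56, was lower in treated SK-N-AS. The libraries had 53.2, 65.9, 55.8 and 81.6 CPM untreated and 48.3, 45.0, 39.6 and 42.6 CPM in S1D4. S2D4 had 38.4, 33.0, 33.5 and 27.05 CPM, and S2D30 had 54.3, 46.6, 40.7 and 52.6 CPM. S1D4 and S2D4 lay wholly below untreated cells, whereas S2D30 overlapped them. NCAM1 fell by 0.57 (SE 0.13, edgeR adjusted p = 0.00297) on the log2 scale in S1D4, by 0.99 (SE 0.14, edgeR adjusted p = 8.51e-06) in S2D4 and by 0.43 (SE 0.13, edgeR adjusted p = 0.00865) in S2D30. From S2D4 to S2D30 it rose by 0.56 (SE 0.14, edgeR adjusted p = 0.00258). GIMEN libraries held only 2, 3 and 2 raw counts untreated and 2, 2 and 1 at D30, which is at the floor.

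GPC2, a heparan sulfate proteoglycan anchored to the membrane and abundant in developing neurons, fell late. It had 28.4, 45.7, 43.9 and 52.8 CPM in untreated SK-N-AS, 39.6, 39.7, 50.7 and 51.6 CPM in S1D4, and 54.7, 60.3, 60.8 and 36.1 CPM in S2D4, with overlap among these groups. S2D30 had 10.04, 14.02, 13.3 and 9.68 CPM, below every other SK-N-AS library. The log2 fold change against untreated was 0.07 in S1D4 (95% interval -0.31 to 0.44, edgeR adjusted p = 0.814) and 0.28 in S2D4 (95% interval -0.10 to 0.65, edgeR adjusted p = 0.214). The S2D4 change reached 0.43 (SE 0.17, edgeR adjusted p = 0.0369) without replicate 4 of that group. In S2D30 GPC2 fell by 1.89 (SE 0.20, edgeR adjusted p = 3.07e-07), and it fell in GIMEN too, from 8.51, 8.44 and 7.74 CPM to 2.47, 2.41 and 3.53 CPM. The GIMEN fall of 1.58 on the log2 scale (SE 0.19, edgeR adjusted p = 1.34e-05) left no overlap.

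ALK, a receptor tyrosine kinase mutated in some neuroblastomas, changed direction between stages in SK-N-AS. Untreated cells had 1.26, 1.22, 1.72 and 3.05 CPM, and S1D4 had 0.763, 1.04, 0.548 and 0.443 CPM. S2D4 had 11.1, 11.1, 14.2 and 4.21 CPM, and S2D30 had 8.38, 7.62, 7.84 and 7.73 CPM. S1D4 lay below and both stage 2 groups above all untreated libraries, and S2D4 replicate 4 was the lowest of its group. The fall in S1D4 was -1.40 (SE 0.40, edgeR adjusted p = 0.00891) on the log2 scale. The rise was 2.44 (SE 0.34, edgeR adjusted p = 1.23e-05) in S2D4 and 2.08 (SE 0.34, edgeR adjusted p = 4.49e-05) in S2D30. Between S1D4 and S2D4, ALK rose 14.4-fold (log2 3.84, SE 0.38, edgeR adjusted p = 4.87e-07). The S1D4 log2 ratio was -0.47 within replicates 1 and 2 and -2.27 within replicates 3 and 4. GIMEN libraries had 4, 0 and 1 raw counts untreated and 3, 1 and 11 at D30, so ALK was near the floor there.

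DLK1, a membrane protein related to the Notch ligands, was nearly lost from SK-N-AS by day 30. Untreated cells had 46.2, 36.9, 9.30 and 9.0 CPM, and S1D4 had 37.4, 36.8, 12.4 and 13.96 CPM. S2D4 had 19.2, 20.9, 21.5 and 23.97 CPM, and S2D30 had 0.175, 0.154, 0.0453 and 0.0868 CPM. The S2D30 libraries, with 4, 3, 1 and 2 raw counts, were far below all others, and the first 3 groups overlapped. Summed counts of 3202 untreated and 10 at S2D30 put the untreated level at 239 times the S2D30 level (exact 95% interval 130 to 499, counting error only). That interval leaves out the spread between untreated libraries: the S2D30 log2 ratio was -8.49 against untreated replicates 1 and 2 and -6.31 against replicates 3 and 4. The fall was called (log2 fold change -7.77, SE 1.21, edgeR adjusted p = 1.76e-07). Replicates split in pairs: the mean was 41.5 CPM in untreated replicates 1 and 2 and 9.15 CPM in 3 and 4, and 37.1 and 13.2 CPM in S1D4. Only 151 of the 15810 genes (0.955%) lay lower by at least 1 on the log2 scale in replicates 3 and 4 of both groups. The S2D4 level lay 0.96 below untreated replicates 1 and 2 and 1.22 above untreated replicates 3 and 4 on the log2 scale, so the direction of its change depends on the pair. Over all 4 replicates the difference was not called in S1D4 (-0.05, SE 0.46, edgeR adjusted p = 0.95) or in S2D4 (-0.29, SE 0.46, edgeR adjusted p = 0.603). In GIMEN, raw counts were 1, 0 and 0 untreated and 0, 0 and 1 at D30.

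**Figure D2:**
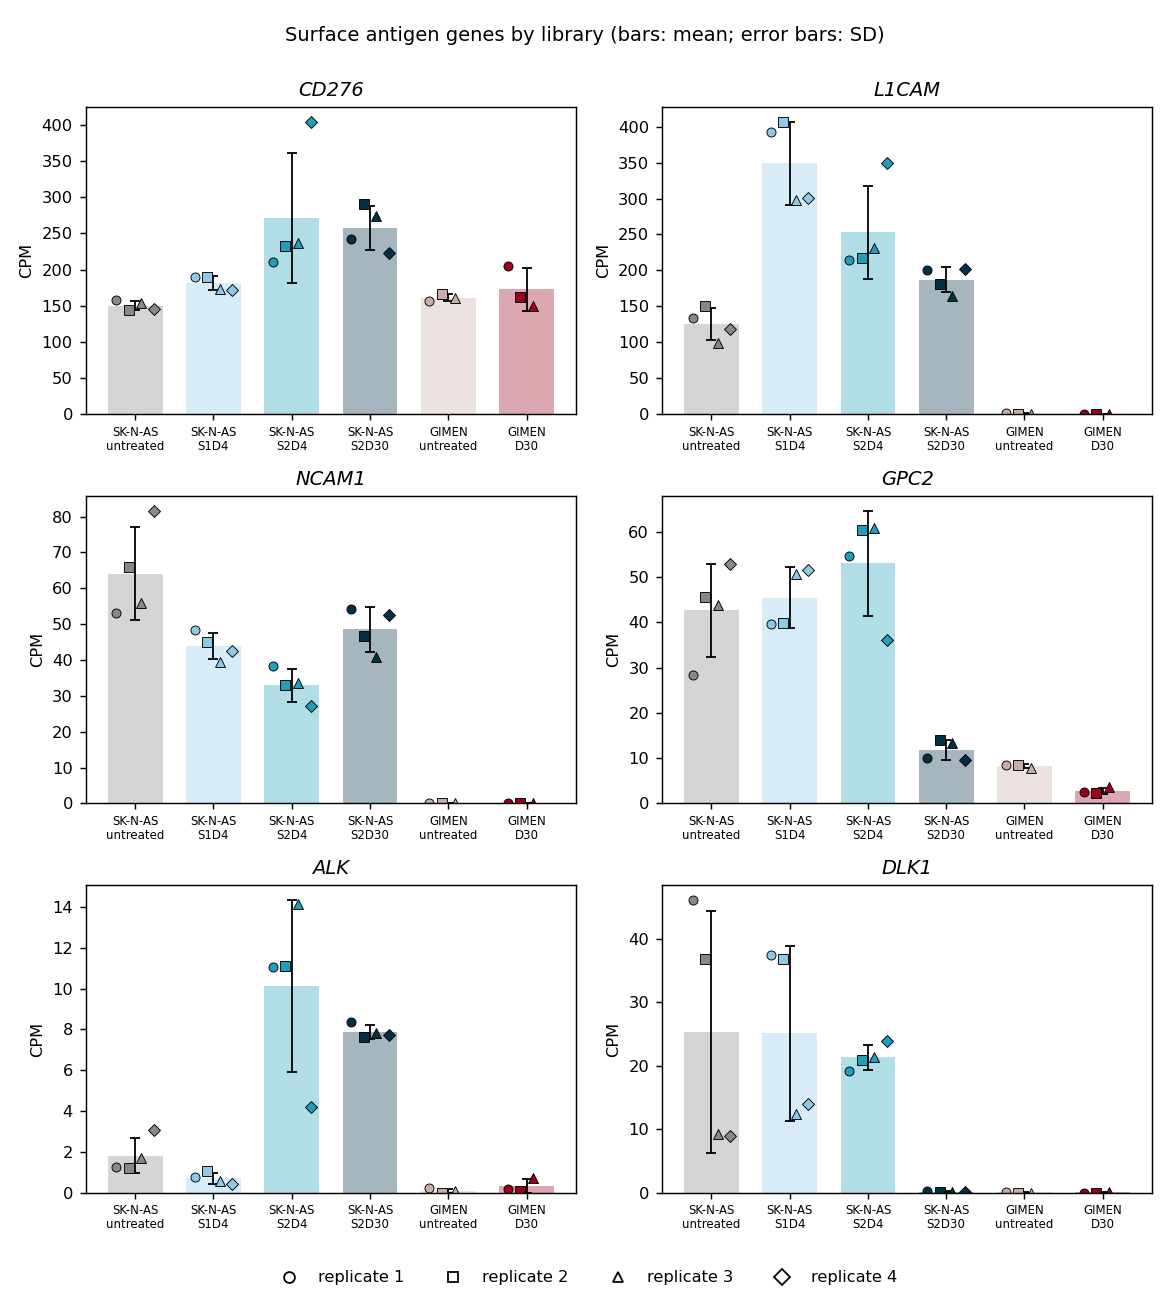
CPM (y axis) of the 6 surface antigen genes in each group (x axis); bars are group means, error bars are SD and points are libraries with the replicate number as shape. L1CAM, NCAM1, ALK and DLK1 sit near 0 in both GIMEN groups, and DLK1 is near 0 in S2D30 with a mean of 0.115 CPM.

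**Figure D3:**
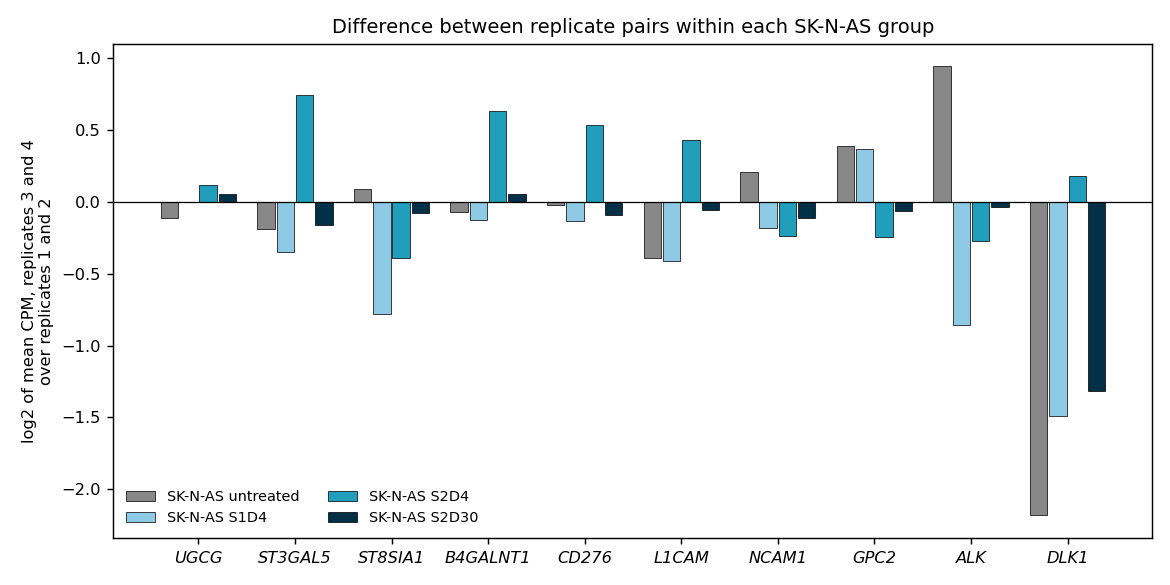
Difference between replicates 3 and 4 and replicates 1 and 2 (y axis, log2 of the ratio of mean CPM) for each gene (x axis) in the 4 SK-N-AS groups, shown as bars. DLK1 has the longest bars, -2.18 in untreated cells and -1.49 in S1D4, and its S2D30 bar of -1.32 rests on 10 counts in all.

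Steps within the SK-N-AS scheme were tested in the same model. Between S1D4 and S2D4, when bufalin and the neuronal medium were added, 8 of the 10 genes were called, 4 higher and 4 lower, where 55.1% of all genes were called (28.3% higher, 26.8% lower). UGCG, ST3GAL5, CD276 and ALK rose while ST8SIA1, B4GALNT1, L1CAM and NCAM1 fell. The largest falls and rises were those of B4GALNT1 (-2.24, SE 0.20, edgeR adjusted p = 1.3e-07) and of ALK given above. The ST8SIA1 and L1CAM falls, -0.77 and -0.47 on the log2 scale, had overlapping libraries and edgeR adjusted p of 0.0367 and 0.022. Each was lost in several alternatives: for ST8SIA1 the value was -0.58 without S2D4 replicate 4 (edgeR adjusted p = 0.0969). The rises of ST3GAL5 and CD276, 0.99 and 0.57, were 0.59 and 0.32 without that library and stayed called. Between S2D4 and S2D30, 6 of 10 were called, 3 higher and 3 lower, where 51.3% of all genes were called (24.4% higher, 26.9% lower). UGCG, B4GALNT1 and NCAM1 rose, and GPC2, L1CAM and DLK1 fell. GPC2 fell by 2.17 on the log2 scale (SE 0.20, edgeR adjusted p = 2.35e-07). The L1CAM fall of 0.43 (SE 0.16, edgeR adjusted p = 0.0363) became -0.24 without S2D4 replicate 4 (edgeR adjusted p = 0.145). Without that library ALK fell over the same step by 0.62 (SE 0.25, edgeR adjusted p = 0.0411), and the CD276 difference turned from -0.08 to 0.18, neither of which was called with it.

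**Figure D4:**
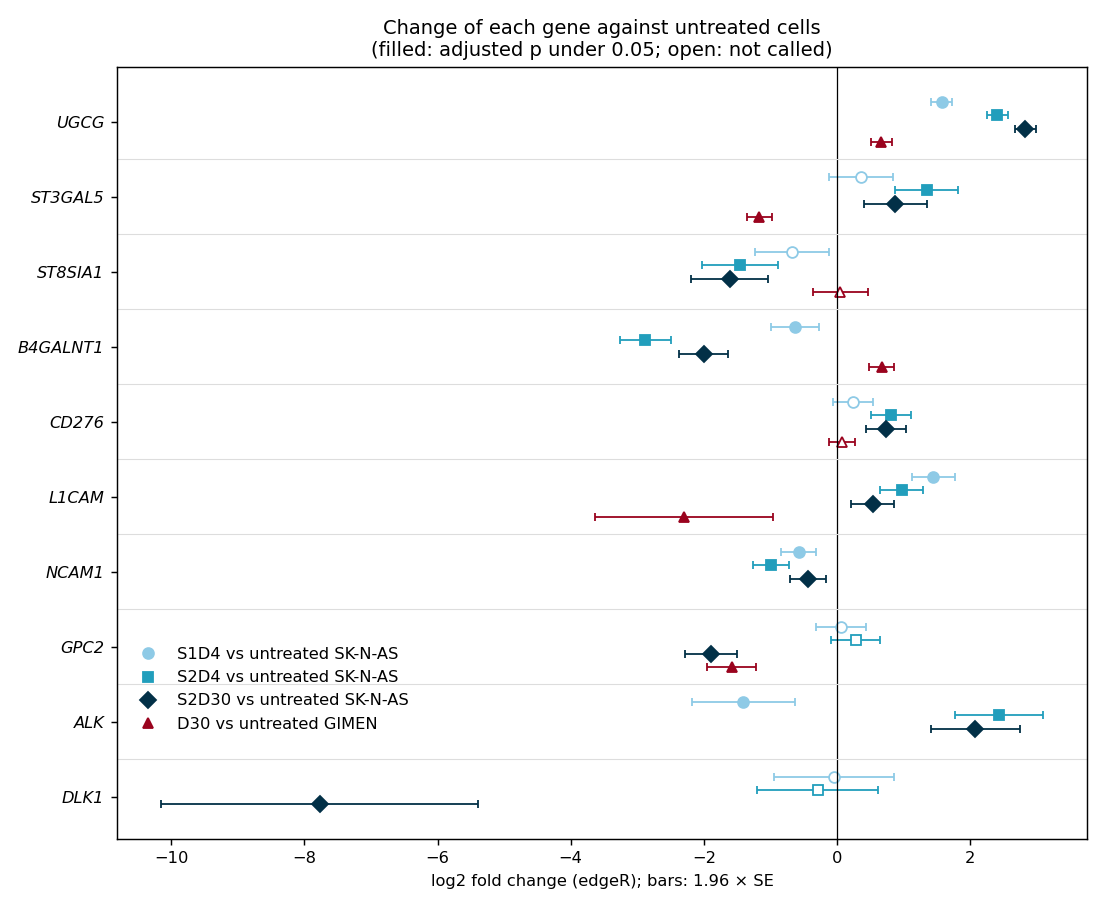
Log2 fold change against untreated cells of the same line (x axis) for each gene (y axis) in S1D4, S2D4, S2D30 and GIMEN D30; bars span the approximate 95% interval from the SE, filled symbols have an edgeR adjusted p under 0.05 and open symbols do not. ST3GAL5, B4GALNT1 and L1CAM lie on opposite sides of 0 in S2D30 and GIMEN D30, and the DLK1 symbol at -7.77 rests on 10 counts in S2D30.

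An interaction term, fitted to the 14 untreated and 30-day libraries, tested whether a gene's 30-day change was the same in SK-N-AS and GIMEN. Doses and medium differed between the lines, so the line and the scheme cannot be told apart. The difference was called for 6 of the 10 genes, 2 higher and 4 lower in GIMEN relative to SK-N-AS, where 49.7% of all genes were called (25.2% higher, 24.5% lower). All 4 enzymes differed. For B4GALNT1 the GIMEN change exceeded the SK-N-AS change by 2.69 on the log2 scale (SE 0.18, edgeR adjusted p = 4.28e-09), with a rise in GIMEN and a fall in SK-N-AS. The reverse held for ST3GAL5, at -2.02 (SE 0.20, edgeR adjusted p = 4.49e-07), which fell in GIMEN and rose in SK-N-AS. UGCG rose in both lines, and less in GIMEN (-2.15, SE 0.12, edgeR adjusted p = 4.04e-10). The ST8SIA1 difference was 1.68 (SE 0.27, edgeR adjusted p = 6.47e-05), from its fall in SK-N-AS beside no called change in GIMEN. Of the antigens, CD276 differed by -0.65 (SE 0.15, edgeR adjusted p = 0.00191) and L1CAM by -2.84 (SE 0.65, edgeR adjusted p = 0.000432), the latter on the low GIMEN counts given above and -4.65 without GIMEN D30 replicate 2. For GPC2, which fell in both lines, the difference was 0.32 with a 95% interval of -0.24 to 0.89 (edgeR adjusted p = 0.383). No difference is read for ALK, NCAM1 and DLK1, whose GIMEN counts were near the floor.

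Before treatment the lines already differed in 9 of the 10 genes, 3 higher and 6 lower in GIMEN, where 73.6% of all genes were called (34.4% higher, 39.2% lower). GIMEN held more ST3GAL5 (log2 3.09, SE 0.14, edgeR adjusted p = 5.93e-08), B4GALNT1 (1.25, SE 0.14, edgeR adjusted p = 3.25e-05) and UGCG (0.89, SE 0.09, edgeR adjusted p = 1.63e-05). Its ST8SIA1 was lower by 0.45 (SE 0.18, edgeR adjusted p = 0.0492), a call lost in 11 of 15 alternatives. With library totals in place of TMM, ST8SIA1 stood at -0.75 and UGCG at 0.59 on the log2 scale. GPC2 was lower by 2.39 (SE 0.20, edgeR adjusted p = 4.09e-06). For genes near the floor in GIMEN, ratios of summed, scaled counts are given with exact 95% intervals for counting error: SK-N-AS exceeded GIMEN 112 times for L1CAM (87.8 to 145). The ratio was 526 for NCAM1 (255 to 1309), on 7502 and 7 counts. It was 21.1 for ALK (8.91 to 65.7), on 215 and 5 counts. DLK1 had 3202 counts in untreated SK-N-AS and 1 in untreated GIMEN, a ratio of 1572 (282 to 62100). CD276 was the gene not called, with a log2 difference of 0.08 (95% interval -0.06 to 0.23, edgeR adjusted p = 0.331). Its direction turned to -0.04 with upper-quartile factors and to -0.22 with library totals alone, where the edgeR adjusted p was 0.0272.

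Levels between genes were compared per kilobase of GENCODE 29 exons, since the gene models behind the counts are not given in the sources used here. CD276 was first of the 10 in every group except S1D4, with mean levels from 33.8 CPM per kilobase in untreated SK-N-AS to 60.9 in S2D4. In S1D4, L1CAM led with 67.9 CPM per kilobase, and CD276 followed with 40.6. GPC2 came next after CD276 and L1CAM in untreated SK-N-AS, at 16.9 CPM per kilobase, and UGCG did so in S2D30, at 32.7. In untreated GIMEN, CD276 (36.1 CPM per kilobase) was followed by B4GALNT1 (10.5), ST3GAL5 (10.4) and UGCG (8.37). ST8SIA1 was the lowest of the 4 enzymes in every group, from 0.140 CPM per kilobase in S2D30 to 0.417 in untreated SK-N-AS.

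Across the 6 groups the order of levels differed by gene. B4GALNT1 ran from treated GIMEN (72.4 ± 10.7 CPM, SD, n = 3) through untreated GIMEN (44.4 ± 2.38, n = 3), untreated SK-N-AS (18.6 ± 3.56, n = 4), S1D4 (12.2 ± 1.39, n = 4) and S2D30 (4.74 ± 0.134, n = 4) to S2D4 (2.55 ± 0.909, n = 4), and no neighbours overlapped. UGCG ran from S2D30 (131 ± 8.12 CPM, SD, n = 4) down to untreated SK-N-AS (17.9 ± 0.838, n = 4), and only S1D4 and treated GIMEN, at 54.5 and 54.2 CPM, overlapped as neighbours. For ST8SIA1, untreated SK-N-AS (4.56 ± 0.391 CPM, SD, n = 4) stood above the rest, and all later neighbours in the order overlapped. In CD276 the overlap ran through all neighbours from S1D4 down to untreated SK-N-AS, and both stage 2 groups overlapped each other above them.

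The genes whose pattern over the 6 groups was nearest to each of the 10 were sought among 15240 genes, by the root mean square (RMS) difference of mean log2 CPM after centring each gene. CD276 had the nearest neighbour of all, VPS37C, at an RMS difference of 0.06, with 34.98 CPM in untreated SK-N-AS, 63.5 CPM in S2D30 and 40.2 and 39.9 CPM in untreated and treated GIMEN. ADAM23 was nearest to ST8SIA1 (0.12), NEDD4 to ST3GAL5 (0.16), CD163L1 to UGCG (0.19) and APBA1 to B4GALNT1 (0.27). APBA1 had 15.2 CPM in untreated SK-N-AS, 1.76 CPM in S2D4 and 78.0 CPM in treated GIMEN, against 18.6, 2.55 and 72.4 CPM for B4GALNT1. The second gene was PHTF1 for ST8SIA1 (0.14), ANKRD28 for ST3GAL5 (0.17), MEF2D for UGCG (0.20), NDUFA4L2 for B4GALNT1 (0.34) and C10orf88 for CD276 (0.07). For the other antigens these were MGMT and NOC2LP1 for NCAM1 (0.28 and 0.31), GPR19 and ATCAY for GPC2 (0.29 and 0.30), CYB561 and DHRS3 for L1CAM (0.54 for both), CHST15 and SLC16A7 for ALK (0.55 and 0.56), and XKR7 and GPR27 for DLK1 (0.79 and 0.84). With library totals in place of TMM, NOC2LP1 and SLC16A7 were not among the 2 nearest genes. These distances rest on 6 group means and describe likeness of pattern only, since centring removes the level.

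Around the 4 enzymes, a list of 30 genes for ceramide, sialic acid and branch synthesis showed both directions. In S2D30, where 33.8% of all genes rose and 36.5% fell, 27 were tested, 13 rose, 7 fell and 7 were not called, with a median log2 fold change of 0.28, against -0.03 over all tested genes. ST3GAL1, which adds sialic acid to core glycans and to later gangliosides, rose from 47.0 to 484 CPM (log2 3.33, SE 0.14, edgeR adjusted p = 8.48e-12). KDSR, an enzyme of ceramide synthesis, rose by 1.97 (SE 0.08, edgeR adjusted p = 1.99e-12). ST6GALNAC3, a sialyltransferase of alpha-series gangliosides, fell by 1.33 (SE 0.21, edgeR adjusted p = 2.89e-05). The ceramide synthase CERS1 fell by 2.89 (SE 0.52, edgeR adjusted p = 0.000154), but 65.1% of its 75-base exon words also occur in other genes. In GIMEN D30, where 35.5% of all genes rose and 36% fell, 23 were tested, 12 rose and 5 fell, with a median of 0.29 against 0.02 over all genes. There B3GALT4, the galactosyltransferase that extends GM2 and GD2, rose by 1.78 (SE 0.21, edgeR adjusted p = 1.09e-05) and B3GNT5, which starts the lacto-series branch, by 1.59 (SE 0.15, edgeR adjusted p = 2.28e-06). SPTLC2, a subunit of the first enzyme of sphingolipid synthesis, fell by 0.68 (SE 0.06, edgeR adjusted p = 7.11e-07), and NANP, of sialic acid synthesis, fell by 1.04 (SE 0.17, edgeR adjusted p = 0.000171). B4GALNT1 is followed in the pathway by B3GALT4, which in SK-N-AS rose by 1.05 on the log2 scale in S2D30. The untreated level of B3GALT4 in SK-N-AS was low, at 1.08 CPM on 21 to 61 raw counts per library.

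Genes of a list for the breakdown or modification of gangliosides and other sphingolipids were mostly higher at 30 days in both lines. Of 17 listed, 16 were tested in S2D30, 12 rose and 1 fell, with a median log2 fold change of 1.48 against -0.03 over all genes, of which 33.8% rose and 36.5% fell. ASAH1, acid ceramidase, rose from 58.9 to 404 CPM (log2 2.74, SE 0.10, edgeR adjusted p = 1.18e-12). The gene that fell was the sialidase NEU4, from 13.2 to 0.794 CPM (-4.08, SE 0.27, edgeR adjusted p = 1.07e-09), and 24.6% of its exon bases overlap a gene on the other strand. In GIMEN D30 15 were tested, 13 rose and none fell, with a median of 0.97 against 0.02 over all genes, of which 35.5% rose and 36% fell. PSAP, the precursor of the saposins that help lysosomal enzymes reach glycolipids, rose from 527 to 2094 CPM, 3.90-fold (SE 0.08 on the log2 scale, edgeR adjusted p = 2.06e-09), and GALC, a lysosomal galactosidase, rose by 1.78 (SE 0.09, edgeR adjusted p = 9.81e-09). In S1D4 and S2D4 the list had 7 and 11 genes higher and 1 and 2 lower, with medians of 0.19 and 0.45. Over all genes 17.6% rose and 22.4% fell in S1D4, and 30.9% and 32.2% in S2D4. The S1D4 count of 8 called genes was 5 when any of S1D4 replicates 1, 3 or 4 or untreated replicate 3 was left out.

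Among 20 other surface targets, 17 were tested in S2D30: 7 rose and 9 fell, with a median of -2.17 against -0.03 over all genes, of which 33.8% rose and 36.5% fell. CD274 (PD-L1), an inhibitory ligand for T cells, rose from 2.10 to 41.2 CPM (log2 4.25, SE 0.38, edgeR adjusted p = 6.45e-08), and the chemokine receptor CXCR4 rose from 4.38 to 49.4 CPM (3.45, SE 0.24, edgeR adjusted p = 3.72e-09). THY1, a membrane glycoprotein of neurons and fibroblasts, fell from 82.3 to 0.857 CPM (-6.62, SE 0.63, edgeR adjusted p = 8.73e-08). SLC6A2, the noradrenaline transporter through which radioiodinated MIBG enters tumour cells, went from 23.3 CPM to 0.103 CPM, with 4, 2, 2 and 1 raw counts left in S2D30 (edgeR adjusted p = 8.07e-06). In GIMEN D30 13 were tested, 6 rose and 3 fell, with a median of 0.36, where 35.5% of all genes rose and 36% fell. MSLN (mesothelin) rose by 1.76 (SE 0.07, edgeR adjusted p = 3.01e-09) and PVR, the poliovirus receptor, by 1.18 (SE 0.07, edgeR adjusted p = 2.82e-08). THY1 fell in GIMEN as well, from 52.6 to 2.99 CPM (-4.16, SE 0.11, edgeR adjusted p = 3.74e-11), and MCAM, an adhesion molecule, fell by 0.58 (SE 0.08, edgeR adjusted p = 5.08e-05).

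A last list of 30 held relatives, ligands and shedding proteases of the antigens, of which 21 were tested in S2D30, 7 rose and 7 fell (median -0.24), where 33.8% of all genes rose and 36.5% fell. PDCD1LG2 (PD-L2) and ICOSLG, of the B7 family like CD276, were named as the 2 largest rises of the list. Other B7 relatives on the list are not described here, so no rise of the family is read. PDCD1LG2 had 5, 7, 1 and 9 raw counts untreated and 233, 216, 231 and 252 in S2D30 (edgeR adjusted p = 4.69e-09). ICOSLG rose from 0.494 to 18.5 CPM (5.24, SE 0.44, edgeR adjusted p = 9.63e-09), with 32.8% of its exon words shared with other genes. GPC3, a glypican like GPC2, fell from 23.3 to 0.964 CPM (-4.61, SE 0.43, edgeR adjusted p = 9.33e-08), and NCAM2, the relative of NCAM1, fell from 13.2 to 0.370 CPM (-5.19, SE 0.29, edgeR adjusted p = 8.5e-11). In GIMEN D30 12 were tested, 3 rose and 5 fell (median -0.23), where 35.5% of all genes rose and 36% fell. GPC6, another glypican, rose by 0.93 (SE 0.15, edgeR adjusted p = 0.000149) and ADAM17, a sheddase, by 0.65 (SE 0.07, edgeR adjusted p = 4.12e-06), while 28.5% of the ADAM17 exon bases overlap a gene on the other strand. NCAM2 fell by 1.76 (SE 0.13, edgeR adjusted p = 2.53e-07). PTN (pleiotrophin), a heparin-binding growth factor, fell from 404 to 42.8 CPM (-3.27, SE 0.10, edgeR adjusted p = 4.11e-10).

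**Figure D5:**
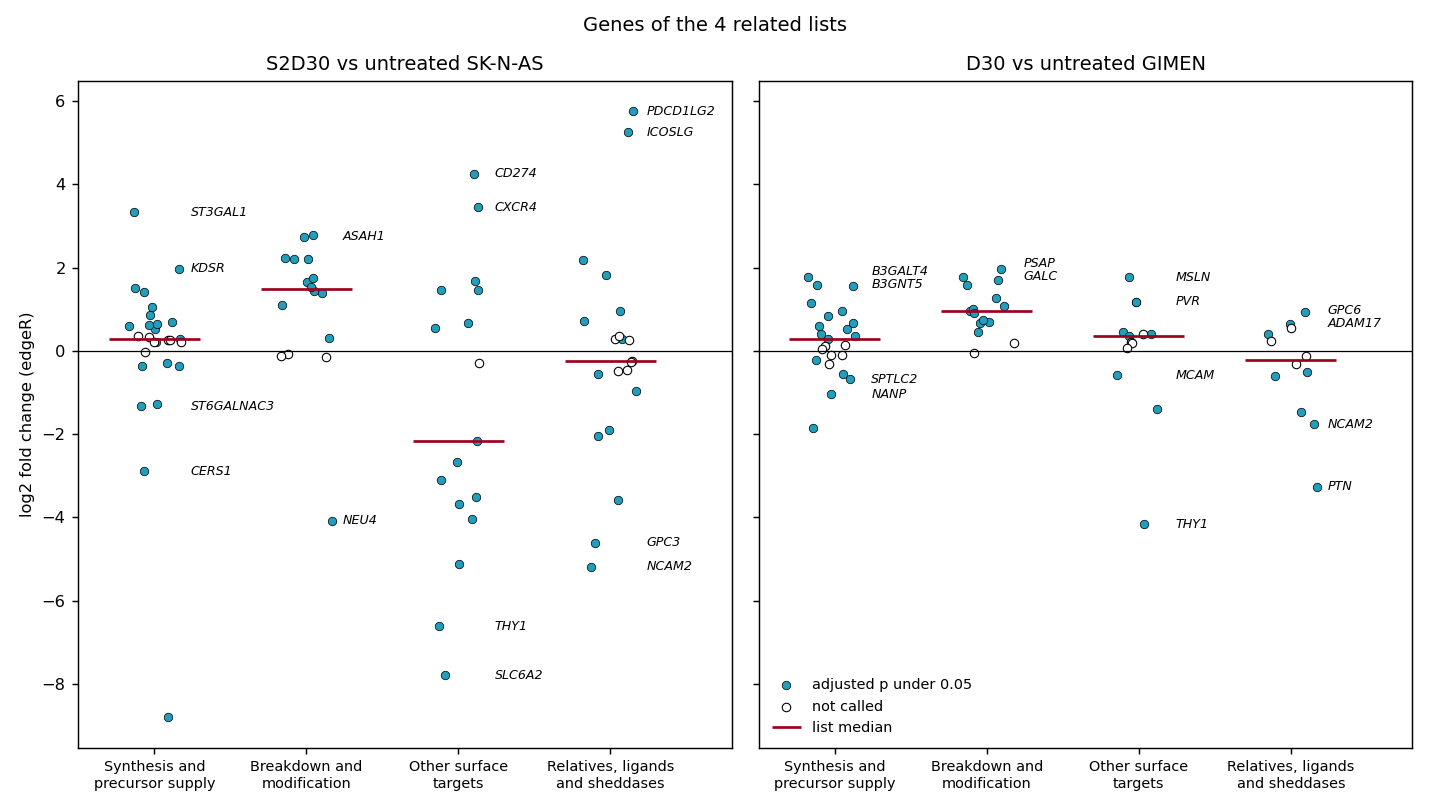
Log2 fold change (y axis) of every tested gene of the 4 lists (x axis) in S2D30 against untreated SK-N-AS (left) and in D30 against untreated GIMEN (right); filled points have an edgeR adjusted p under 0.05, open points do not, and red lines are list medians. The medians of the breakdown list are 1.48 and 0.97, and labelled points are the genes named in the text.

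Other RNA moved with these changes. The 12 mesenchymal markers summed to 3134 to 5360 CPM in S2D4 and 3562 to 4230 CPM in S2D30, and 10 of 12 rose and 2 fell in each against untreated cells. The 12 adrenergic markers summed to 1259 to 5360 CPM in S2D4, overlapping untreated cells, and 10 of 12 fell and 1 rose. In S2D30 they summed to 333 to 446 CPM, and 11 of 12 fell. In GIMEN the mesenchymal sum went to 22182 to 24956 CPM at D30, with 8 of 11 tested genes lower and 2 higher. The adrenergic sum there was 1106 to 1137 CPM untreated and 772 to 892 CPM at D30, with 3 of 6 tested genes lower and 1 higher. All 10 proliferation genes fell in each of the 4 comparisons with untreated cells, and their sum went from 1251 to 1441 CPM untreated to 102 to 108 CPM in S2D30, and from 1940 to 1978 CPM to 83.4 to 96.1 CPM in GIMEN. White blood cell markers summed to 171 to 216 CPM in untreated SK-N-AS, 78.9 to 97.8 CPM in S1D4, 102 to 159 CPM in S2D4 and 101 to 153 CPM in S2D30, where 3 of 4 tested rose and 1 fell. In GIMEN their sum went from 98.6 to 112 CPM untreated to 180 to 414 CPM at D30, with 1 of 4 tested genes higher and 2 lower. In untreated SK-N-AS the mean was 177 CPM for PTPRC, 13.2 CPM for CD68 and 1.34 CPM for CD14, while CD3E, CD3D, MS4A1 and FCGR3A were at 0. The part of these shifts in the changes of the 10 genes was not tested.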

How the data were processed

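Total RNA of 22 libraries was sequenced, and the table the authors deposited holds raw counts per gene, whole numbers in 1 column per library, per the file headers and the values. The aligner, counting tool, build, annotation and strand setting are not given in the sources used here. Groups, doses and days came from the labels. Of the list symbols, 4 were matched through RefSeq synonyms, and MEG3 is not used here.

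Tests used edgeR 4.0.16 in R 4.3.3 (filterByExpr with a minimum count of 10 and minimum total of 15, TMM scaling, glmQLFit and glmQLFTest), in models of 16 SK-N-AS libraries (15810 genes), 6 GIMEN libraries (13517), 14 libraries for the interaction (16246) and 7 untreated libraries (15101). The Benjamini-Hochberg adjustment ran over all genes of a model, and the threshold was 0.05. SE is that of the fitted log2 fold change and SD that of CPM between replicates. The 95% intervals of log2 fold changes come from the SE by a normal approximation. They are not part of the quasi-likelihood test and can be narrower than it would give. Total counts of 16456484 to 37506800 set the precision, and a group with at most 3 counts per library was taken as at the floor. Exact intervals are conditional binomial on counts summed over libraries, so they cover counting error only and leave out the spread between libraries. They take each read as a separate molecule, which was not checked. The fits were tested on simulated data in which few genes changed, rises matched falls and all genes had the same spread. That simulation thus does not test the scaling where many genes change, as here.

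The members, the gene lists and the comparisons were chosen with earlier results of these data known. List genes named are the 2 largest rises and 2 largest falls per list at 30 days among called genes with a mean of at least 5 CPM and no overlap between groups; some items are not reported here. PTPRC, CD68, CD14, CHGA and B3GALT4 in SK-N-AS were named after their values were seen. For each of the 10 genes the 2 genes nearest in pattern (prior count 2, a mean of at least 1 CPM in 1 group) are named. Promoters are from RefSeq (GRCh38.p14), and exon lengths and shared 75-base words from GENCODE 29. Alternatives were other scalings, DESeq2 1.42.0, other filters, a replicate block, other sample sets, a term for replicates 3 and 4, and leaving out each library. The term for replicates 3 and 4 covers untreated and S1D4 cells and follows a split seen in these data, which the labels do not name.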

Additional observations from a re-analysis of the deposited data

Results flagged for a closer look

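In 3 of the 40 groups of 4 SK-N-AS libraries tested (10 genes in 4 groups), 1 library lay far from the others, by Dixon's criterion. Chance flags about 1 in 20 such groups. All 3 were S2D4 replicate 4, which had 31.1 CPM of ST3GAL5 where the others had 13.3 to 14.3, 404 CPM of CD276 where the others had 210.1 to 237, and 349 CPM of L1CAM where the others had 214 to 231. That library was also the least like its group over all genes.

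The 30-day change differed between the lines by the interaction test for 6 genes. On the log2 scale, GIMEN minus SK-N-AS, the difference was 2.69 for B4GALNT1, 1.68 for ST8SIA1, -0.65 for CD276, -2.02 for ST3GAL5, -2.15 for UGCG and -2.84 for L1CAM. The edgeR adjusted p-values ran from 4.04e-10 for UGCG to 0.00191 for CD276. The sign of the change was opposite in the lines for B4GALNT1, ST3GAL5 and L1CAM. Doses, medium and scheme cannot be told apart from the line.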

How the results depend on the processing

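Over the alternatives, 5 to 8 of the 10 were called in S1D4 (5 to 8 when a library was left out, with 8 without S2D4 replicate 4), 8 to 9 in S2D4, 10 in S2D30, 6 to 8 between S1D4 and S2D4, 5 to 6 between S2D4 and S2D30, 5 in GIMEN, 6 to 7 for the interaction and 8 to 10 between untreated lines. Of the gene results under an alternative, 2205 kept direction and side of the threshold, 12 gained a call, 27 lost it and 23 changed sign. No gene called under the reported settings changed sign. DLK1 changed sign most: in S1D4 it was 0.036 with library totals, 0.070 with the replicate block, 0.14 with a term for replicates 3 and 4, and -0.33 to 0.45 with a library left out. In S2D4 it was 0.14 with the block, 0.079 with the term and -0.56 to 0.22 with a library left out. Between S1D4 and S2D4 it was 0.070 with the block and -0.47 to 0.013 with a library left out. The CD276 difference between untreated lines was -0.043 with upper-quartile factors and -0.22 with library totals. With a library left out, uncalled changes ran from -0.061 to 0.19 for GPC2 in S1D4, from -0.36 to 0.16 for ST8SIA1 and from -0.18 to 0.18 for CD276 between S2D4 and S2D30, from -0.051 to 0.16 for ST8SIA1 and from -0.062 to 0.16 for CD276 in GIMEN, and from -1.64 to 1.21 for ALK in the interaction. The cause was not tested.

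Library totals in place of TMM shifted the median gene by -0.15 in S2D4, -0.21 between S1D4 and S2D4, 0.17 in the interaction and -0.30 between untreated lines. Replicate numbers are shared across groups, but same-numbered libraries deviated together in 3 of 4 pairs only between untreated and S1D4 (correlation 0.04 to 0.29), so the numbers were not taken to pair samples. A replicate block called 6 genes in S1D4 (2 higher, 4 lower), 8 in S2D4, 10 in S2D30, 8 and 6 in the later steps, 5 in GIMEN, 7 in the interaction and 8 between untreated lines. With the block ST8SIA1 in S1D4 was called (-0.73, edgeR adjusted p = 0.0408). Depth limits ALK, NCAM1, DLK1 and L1CAM in GIMEN and DLK1 in S2D30, where a few counts carry each value.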
